A study of Mus musculus with 12 samples.

Results

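The replication-dependent histone genes were taken from the array by name. Every probe whose gene symbol in the platform's probe-to-gene table starts with H1f, H2ac, H2bc, H3c or H4c and a digit, or with an older Hist prefix, was a member. The rule found 60 probes of 54 genes among the 25697 probes of the array, with 10 probes for the linker histones H1, 14 for H2A, 14 for H2B, 12 for H3 and 10 for H4. Of all 16593 gene symbols on the array these are a small part. The members were chosen by symbol and no signal entered the rule. The family was taken up, however, with earlier results of these arrays known, and the p-values below do not account for that choice. The rule also admits genes that are not coupled to DNA replication. H1f10 encodes a linker variant made throughout the cell cycle, H1f8 is an oocyte gene, and H1f6, H1f7, H2ac1 and H2bc1 are germ cell genes of the testis. Of these, H1f10 was the only gene detected.

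The arrays measured bone marrow-derived macrophages (BMDM), grown from the marrow of Balb/c mice with the growth factor M-CSF, after 1 h of treatment. They compare BMDM treated with LPS plus human β-defensin 3 (hBD3), LPS alone, hBD3 alone, and untreated BMDM, with 3 of the 12 Illumina MouseRef-8 arrays in each group, to ask how the defensin alters the early response to LPS. In the labels LPS is at 50 ng/mL, hBD3 is at 5 mg/mL and the combination has no dose, and the methods of the study state hBD3 in μg/mL. All groups shared the growth in M-CSF and a period without it before treatment, the macrophages of each group came from 3 separate mice, and the labels do not say whether arrays of 1 replicate number came from the same animal. Values are log2 signals after quantile normalization and are listed in the order of replicates 1, 2 and 3. A log FC is a difference of group means on this scale. An error after ± is its standard error (SE, n = 3 arrays per group) from limma's fit without a replicate term. An adjusted p given as with the block comes from a second fit, which has its own SE. A probe counted as detected when its detection p was under 0.01 on at least 3 of the 12 arrays.

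Histones package DNA. In the nucleosome core H2A pairs with H2B and H3 with H4, and H1 binds the linker DNA between cores. The replication-dependent genes lie in clusters, have no introns, and are expressed mainly in S phase. Their mRNAs end in a conserved stem-loop that is bound by the protein SLBP, where other mRNAs end in a poly(A) tail, although polyadenylated forms of some of them are known in differentiated cells. The labelling used here starts from an oligo(dT) primer, and what share of each histone mRNA it copied was not measured. Most members of a core histone class (H2A, H2B, H3 or H4) are nearly identical in their coding sequence, so a probe may also bind mRNA of other genes of its class. The probe sequences were not used here, and a core histone value is therefore best read as that of a probe and its near-identical genes.

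The RefSeq table (GRCm38.p6) placed 44 of the 54 genes on chromosome 13, 7 on chromosome 3, 2 on chromosome 6 and 1 on chromosome 15. Many H2A and H2B genes stand head to head, sharing 1 short stretch of DNA from which transcription runs both ways. The starts of H2ac12 and H2bc12 are 178 bases apart, those of H2ac7 and H2bc7 174, those of H2ac15 and H2bc15 164, those of H2ac8 and H2bc8 180, and those of H2ac11 and H2bc11 249. The DNA just before the start is shown for the 5 H2A genes with the largest log FC between LPS plus hBD3 and LPS, and for H2ac18, an H2A gene whose log FC was near 0. For H2ac7, H2ac12 and H2ac15 the stretch is the whole of the DNA between the start of the gene and that of its H2B neighbour. Capitals mark matches, on either strand, to CCAAT (the CCAAT box), to TATAAA (the TATA box) or to ATTTGCAT (the octamer). The positions are chr13:21833476-21833655, minus strand for H2ac24, chr13:23574208-23574380, plus strand for H2ac7, chr13:21753913-21754075, minus strand for H2ac15, chr13:22035644-22035820, minus strand for H2ac12, chr13:23533695-23533874, plus strand for H2ac10, and chr3:96245317-96245496, plus strand for H2ac18.
H2ac24: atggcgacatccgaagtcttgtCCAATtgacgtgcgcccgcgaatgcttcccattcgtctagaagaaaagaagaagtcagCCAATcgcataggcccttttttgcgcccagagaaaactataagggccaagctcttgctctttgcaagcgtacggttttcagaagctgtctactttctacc
H2ac7: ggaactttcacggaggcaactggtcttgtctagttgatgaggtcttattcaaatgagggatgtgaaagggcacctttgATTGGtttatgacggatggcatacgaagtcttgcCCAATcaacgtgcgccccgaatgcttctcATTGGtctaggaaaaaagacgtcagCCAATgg
H2ac15: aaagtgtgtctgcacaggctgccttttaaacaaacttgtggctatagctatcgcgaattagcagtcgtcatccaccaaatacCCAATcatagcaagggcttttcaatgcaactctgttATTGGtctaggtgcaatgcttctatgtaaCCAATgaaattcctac
H2ac12: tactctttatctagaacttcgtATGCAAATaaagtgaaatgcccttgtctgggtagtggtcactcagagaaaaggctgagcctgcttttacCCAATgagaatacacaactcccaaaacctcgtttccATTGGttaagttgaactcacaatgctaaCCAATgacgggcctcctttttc
H2ac10: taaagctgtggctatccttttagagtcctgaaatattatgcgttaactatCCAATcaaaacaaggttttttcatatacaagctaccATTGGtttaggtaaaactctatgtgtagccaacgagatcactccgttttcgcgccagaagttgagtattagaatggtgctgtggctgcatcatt
H2ac18: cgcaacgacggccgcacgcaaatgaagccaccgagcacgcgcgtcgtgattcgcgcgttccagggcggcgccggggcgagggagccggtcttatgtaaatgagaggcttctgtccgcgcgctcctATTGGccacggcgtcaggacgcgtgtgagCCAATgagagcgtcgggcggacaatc

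Promoter sequences were found for 50 of the 54 genes, in 51 windows. In the 250 bases before the start, CCAAT matched in 14 of 14 H2A, 12 of 12 H2B, 6 of 7 H3, 7 of 9 H1 and 2 of 9 H4 windows, against 33.8% of all 32851 promoter windows. The octamer, a known element of H2B promoters, matched in 7 of 12 H2B windows and 6 of 14 H2A windows and in no H1, H3 or H4 window, against 1.6% of all. TATAAA matched in 24 of the 51 windows, against 12.4% of all. H2ac18 has CCAAT matches as the other 5 shown do. TATAAA matched in 2 of the 7 H2A genes described below as called and in 2 of the 4 other detected H2A genes, and the octamer in 2 of 7 and 1 of 4. Genes that stand head to head share this DNA, so 1 match can count in both an H2A and an H2B window, as the octamer of H2ac12 and H2bc12 does. Where the starts lie closer than 250 bases, a window also runs past the start of the partner gene. A match is a run of letters and not a shown binding site.

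Of the 60 histone probes, 37, of 35 genes, were detected, which is 3 of 10 for H1, 11 of 14 for H2A, 9 of 14 for H2B, 7 of 12 for H3 and 7 of 10 for H4. On all 12 arrays, 27 probes were detected, 21 were detected on none, and 2 on 1 or 2 arrays. Arrays differed in how many of the 60 they detected, from 29 to 38, and the 4 arrays of replicate 1 had the lowest counts of their groups, 30, 30, 29 and 30. Over the whole array, between 8958 and 9923 probes were detected per array. LPS replicate 1 had the fewest and correlated least with its own group (mean r 0.967, against 0.979 or more for every other array), so values without it are given where it matters.

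The clearest difference between treatments within the family lay in H2A, between LPS plus hBD3 and LPS. The 11 detected H2A probes had a median log FC of 0.71, against 0.24 for the 3 H1, 0.20 for the 9 H2B, 0.13 for the 7 H3 and 0.07 for the 7 H4 probes, and -0.01 for all 10123 detected probes. Without a replicate term in limma's fit, 0 of 60 histone probes passed an adjusted p of 0.05, where 14 of 25697 probes did (0.0545%), all lower in LPS plus hBD3. At an unadjusted p under 0.05, 10 of the 60 passed, all higher in LPS plus hBD3, against 3.7% of all probes. In this pair of groups, arrays with the same number deviated together. With the replicate number as a block in the fit, 7 histone probes passed the adjusted threshold and all were higher in LPS plus hBD3. Over the whole array 8 probes were called higher with the block (0.0311%) and 34 lower, so the 7 H2A probes were 7 of those 8. None of the H1, H2B, H3 or H4 probes passed.

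H2ac24 (older symbol Hist1h2ap) measured 10.43, 11.07 and 11.12 in LPS plus hBD3, 9.34, 10.09 and 10.33 in LPS, 10.44, 10.68 and 10.94 in hBD3, and 10.19, 10.59 and 10.78 in untreated BMDM. Every LPS array lay below every LPS plus hBD3 array, and the log FC was 0.95 ± 0.27, or 1.94-fold, with an adjusted p of 1 without the block and 0.00209 with it in limma (SE with block 0.10). H2ac7 (Hist1h2ad) measured 8.54, 8.99 and 9.31 in LPS plus hBD3, 7.26, 8.17 and 8.48 in LPS, 8.54, 9.003 and 8.95 in hBD3, and 8.13, 8.55 and 9.02 in untreated BMDM. The LPS arrays again lay below all LPS plus hBD3 arrays, with a log FC of 0.98 ± 0.32 (adjusted p = 0.0117 with the block). H2ac15 (Hist1h2ak) measured 8.39, 9.02 and 9.15 in LPS plus hBD3, 7.29, 8.05 and 8.47 in LPS, 8.53, 8.88 and 9.10 in hBD3, and 8.23, 8.46 and 8.95 in untreated BMDM. Here LPS replicate 3 lay above LPS plus hBD3 replicate 1, so the groups overlapped, while each LPS plus hBD3 array exceeded the LPS array of its own number, by 1.09, 0.97 and 0.68 (log FC 0.92 ± 0.30, adjusted p = 0.00742 with the block).

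H2ac10 (Hist1h2af) had the smallest adjusted p of the family with the block, 0.000538. It measured 8.38, 9.09 and 8.97 in LPS plus hBD3, 7.48, 8.20 and 8.15 in LPS, 8.33, 8.70 and 8.78 in hBD3, and 7.94, 8.65 and 8.54 in untreated BMDM. The differences within replicate numbers were nearly equal, 0.90, 0.89 and 0.82, and the groups did not overlap (log FC 0.87 ± 0.25). H2ac12 (Hist1h2ah) measured 8.17, 8.68 and 8.76 in LPS plus hBD3, 7.03, 7.83 and 8.14 in LPS, 8.14, 8.72 and 9.002 in hBD3, and 7.95, 8.23 and 8.55 in untreated BMDM. Its LPS plus hBD3 and LPS arrays did not overlap either (log FC 0.87 ± 0.30, adjusted p = 0.00492 with the block). H2ac22 (Hist1h2an) measured 7.71, 8.45 and 8.23 in LPS plus hBD3, 7.07, 7.73 and 7.47 in LPS, 7.84, 8.11 and 8.15 in hBD3, and 7.54, 7.77 and 7.96 in untreated BMDM. The groups overlapped narrowly, at 7.71 for LPS plus hBD3 replicate 1 and 7.73 for LPS replicate 2 (log FC 0.71 ± 0.21, adjusted p = 0.0231 with the block). H2ac20 (Hist2h2ac), which lies in the smaller cluster on chromosome 3, measured 10.57, 11.0002 and 11.11 in LPS plus hBD3, 10.15, 10.55 and 10.51 in LPS, 10.54, 10.95 and 10.96 in hBD3, and 10.24, 10.63 and 10.90 in untreated BMDM. Its log FC was the smallest of the 7, 0.49 ± 0.20 (adjusted p = 0.0244 with the block), and the groups did not overlap.

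The other 4 detected H2A probes were not called. H2ac21, H2ac11 and H2ac8 had low mean signals, 6.09, 6.35 and 6.43, and H2ac21 and H2ac11 were detected on 8 and 11 arrays. The 7 called probes had means of 7.84 to 10.68 and were detected on all 12. Histone probes below the detection rule had means of 5.30 to 5.81. Whether signal level bears on these log FC was not tested. H2ac18 (Hist2h2aa1) measured 7.88, 8.48 and 8.49 in LPS plus hBD3, 8.07, 8.48 and 8.40 in LPS, 7.91, 8.66 and 8.43 in hBD3, and 7.64, 8.51 and 8.38 in untreated BMDM, with no ordering of LPS plus hBD3 against LPS (log FC -0.03 ± 0.26). H2ac21 (Hist2h2ab) measured 5.94, 6.24 and 6.01 in LPS plus hBD3, 6.28, 6.09 and 6.06 in LPS, 5.82, 6.15 and 6.54 in hBD3, and 5.85, 5.98 and 6.07 in untreated BMDM (log FC -0.08 ± 0.16). H2ac11 (Hist1h2ag) measured 6.35, 6.36 and 6.58 in LPS plus hBD3, 6.07, 6.20 and 6.15 in LPS, 6.14, 6.66 and 6.995 in hBD3, and 6.09, 6.27 and 6.31 in untreated BMDM, with every LPS plus hBD3 array above every LPS array (log FC 0.29 ± 0.17). H2ac8 ranged from 6.24 to 6.645 over the 12 arrays, had a log FC of 0.17 ± 0.07, and its LPS plus hBD3 and LPS arrays did not overlap either. Across the family, 7 of the 37 detected probes had all LPS plus hBD3 arrays above all LPS arrays, and all 7 were H2A probes (H2ac7, H2ac8, H2ac10, H2ac11, H2ac12, H2ac20 and H2ac24). Of the 60 probes it was 9, against 3.5% of all probes on the array.

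**Figure D1:**
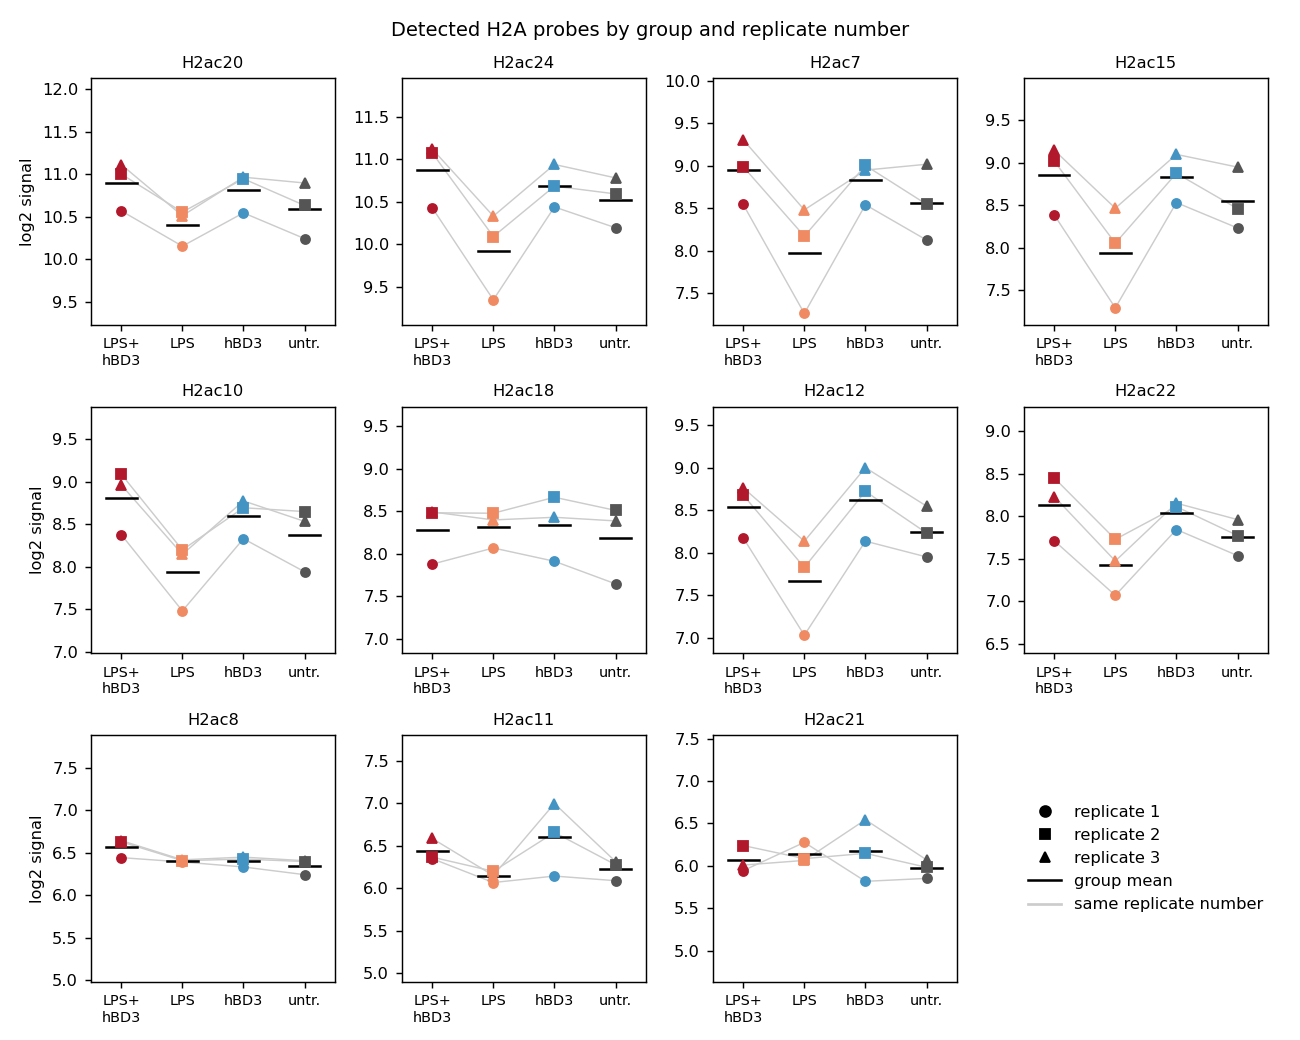
Log2 signal of each of the 11 detected H2A probes (vertical axis, each panel spans the same range) in LPS plus hBD3, LPS, hBD3 and untreated BMDM (left to right). Markers give the replicate number, black bars the group mean of 3 arrays, and grey lines join arrays of the same number. In the 7 called probes (H2ac7, H2ac10, H2ac12, H2ac15, H2ac20, H2ac22 and H2ac24), and also in H2ac11, which was not called, each line is lowest at LPS. For H2ac8 each line is lowest in untreated BMDM, and for H2ac18 and H2ac21 not every line is lowest at LPS.

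The 7 called probes moved together from array to array. Over the 12 arrays, the correlations of their 21 pairs ranged from 0.90 to 0.98 (median 0.93), and after each replicate number was centred from 0.85 to 0.98. Between the 7 and the other 4 detected H2A probes the median was 0.55 (range 0.06 to 0.80), and between the 7 and the 9 detected H2B probes 0.67 (range -0.15 to 0.94). These comparison sets were not centred. The 7 were picked by their difference between LPS plus hBD3 and LPS on these same arrays. Higher correlations among them follow in part from that choice and give it no separate support. All these probes share the same arrays and RNA, and probes of near-identical genes can read the same mRNA, so the number of separate transcripts behind the 7 values is not known.

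How many of the 7 were called with the block depended on single arrays and on the scaling. The log FC of the 7 stayed positive in all of these settings. Without LPS replicate 1, all 7 were called with the block, with log FC of 0.52 to 0.83 in that fit. In the plain fit without that array the log FC of the 7 ranged from 0.36 to 0.66 and none was called, as on all arrays, and the values of H2ac7, H2ac15 and H2ac12 were 0.62, 0.59 and 0.56, against 0.98, 0.92 and 0.87 on all arrays. Leaving out LPS plus hBD3 replicate 1 left 2 called, leaving out LPS plus hBD3 replicate 2 left 2 and leaving out LPS plus hBD3 replicate 3 left 4. With background correction by neqc 2 were called. Median scaling left 1. That scaling moved the median of all detected probes by -0.23 between these groups, and the H2A median of 0.45 then lay 0.68 above it, against 0.72 above it after quantile normalization.

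Markers of other cells were read beside this result. The only other probe called higher with the block was 1 of the Sparc probes, named after its values were seen, which encodes a matrix protein of stromal cells and macrophages. It measured 6.14, 7.004 and 7.37 in LPS plus hBD3, 5.75, 6.22 and 6.55 in LPS, 5.94, 6.59 and 6.95 in hBD3, and 6.05, 6.81 and 6.93 in untreated BMDM (log FC 0.66 ± 0.36, adjusted p = 0.0124 with the block), and the other Sparc probe had a log FC of 0.32 ± 0.30. Of the 5 measured stromal and erythroid markers, Col1a1, a collagen of fibroblasts, was detected on 6 arrays, and the other 4 (Col1a2, Col3a1, Alas2 and Hba-a1) on none. Col1a1 measured 5.81, 6.30 and 6.77 in LPS plus hBD3, 5.62, 5.61 and 6.03 in LPS, 5.98, 5.90 and 6.30 in hBD3, and 5.68, 6.27 and 6.25 in untreated BMDM (log FC 0.54 ± 0.24). The summed linear signal of the 5 ranged from 226 to 280 in LPS plus hBD3, 224 to 246 in LPS, 234 to 253 in hBD3, and 222 to 250 in untreated BMDM. Whether they play a part in the H2A values was not tested. In RNA from many cells, fewer cells of a type and less RNA per cell cannot be told apart.

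**Figure D2:**
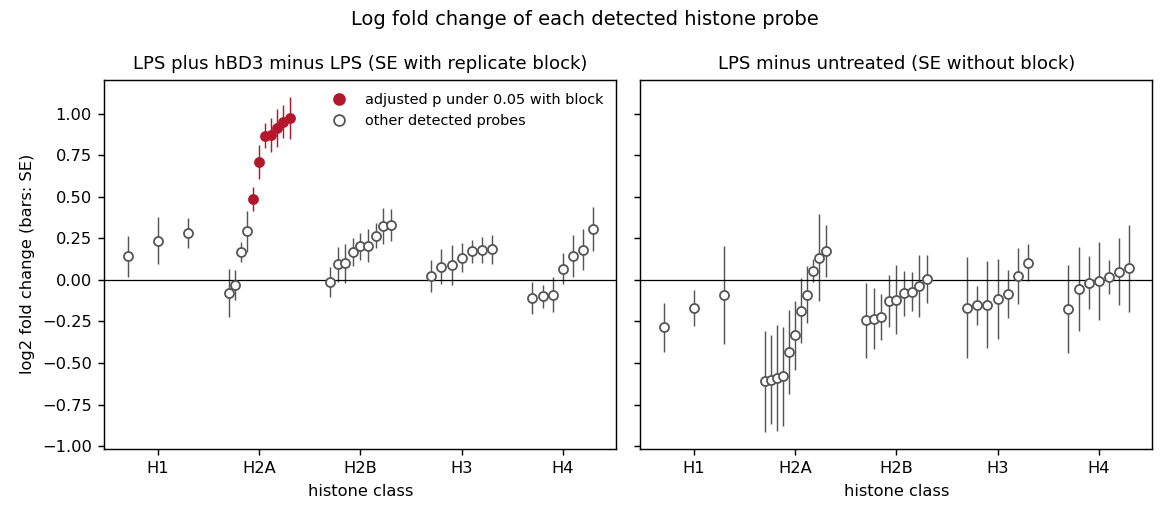
Log2 fold change (vertical axis) of each detected histone probe by class (horizontal axis), for LPS plus hBD3 minus LPS at left and LPS minus untreated at right. Bars are SE, with the replicate block at left and without it at right, and filled points, used at left only, passed an adjusted p of 0.05 with the block. The 7 filled points are H2A probes between 0.49 and 0.98, and at right, where no probe passed without the block, 8 of the 11 H2A points lie below 0.

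The H2B genes that share their promoter region with these H2A genes had smaller log FC between LPS plus hBD3 and LPS. H2bc7 had 0.32 ± 0.23 beside 0.98 for H2ac7, H2bc12 had 0.20 ± 0.14 beside 0.87 for H2ac12, H2bc15 had 0.27 ± 0.14 beside 0.92 for H2ac15, H2bc11 had 0.17 ± 0.21 beside 0.29 for H2ac11, and H2bc8 had -0.01 ± 0.14 beside 0.17 for H2ac8. In all 5 pairs the H2A probe had the larger value, and no test of the difference was made. H2bc7 measured 9.52, 9.52 and 10.01 in LPS plus hBD3, 8.90, 9.43 and 9.74 in LPS, 9.46, 9.36 and 9.92 in hBD3, and 9.38, 9.59 and 9.83 in untreated BMDM, and H2bc12 measured 8.44, 8.41 and 8.69 in LPS plus hBD3, 8.19, 8.28 and 8.45 in LPS, 8.16, 8.32 and 8.60 in hBD3, and 8.15, 8.52 and 8.49 in untreated BMDM. H2bc15 measured 7.68, 7.75 and 8.04 in LPS plus hBD3, 7.34, 7.55 and 7.78 in LPS, 7.71, 7.89 and 7.86 in hBD3, and 7.54, 7.85 and 7.95 in untreated BMDM. In each of these the LPS plus hBD3 and LPS arrays overlapped, and arrays of replicate 3 were high in most groups.

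Among the remaining H2B probes, H2bc11 measured 9.25, 9.41 and 9.76 in LPS plus hBD3, 8.91, 9.44 and 9.57 in LPS, 9.18, 9.38 and 9.53 in hBD3, and 9.06, 9.53 and 9.68 in untreated BMDM. H2bc9 measured 8.77, 8.81 and 9.27 in LPS plus hBD3, 8.28, 8.70 and 8.88 in LPS, 8.76, 8.67 and 8.99 in hBD3, and 8.61, 8.90 and 9.04 in untreated BMDM, and had the largest log FC of the class between LPS plus hBD3 and LPS, 0.33 ± 0.18. In both, LPS replicate 1 was the lowest array and the groups overlapped. H2bc14 measured 8.01, 7.92 and 8.37 in LPS plus hBD3, 7.95, 7.99 and 8.06 in LPS, 7.70, 8.09 and 8.54 in hBD3, and 7.85, 8.02 and 8.23 in untreated BMDM. H2bc8 measured 5.82, 6.11 and 6.12 in LPS plus hBD3, 6.000, 6.04 and 6.04 in LPS, 5.77, 6.24 and 6.04 in hBD3, and 5.76, 6.28 and 6.03 in untreated BMDM. H2bc4 has 2 probes, of which the detected one measured 9.38, 9.35 and 9.92 in LPS plus hBD3, 9.28, 9.38 and 9.38 in LPS, 9.28, 9.36 and 9.55 in hBD3, and 9.22, 9.52 and 9.68 in untreated BMDM, and LPS plus hBD3 replicate 3 stood highest. The other H2bc4 probe was not detected on any array, so the 2 probes of this gene disagree. H2bc18 also has 1 detected and 1 undetected probe. The detected one ranged from 5.69 to 6.12 over the 12 arrays.

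In the H3 class all 7 detected probes had a positive log FC between LPS plus hBD3 and LPS, at most 0.19, and none passed the test. H3c6 (Hist1h3e) measured 7.09, 7.67 and 7.82 in LPS plus hBD3, 6.87, 7.62 and 7.56 in LPS, 7.002, 7.50 and 7.71 in hBD3, and 6.90, 7.77 and 7.87 in untreated BMDM, and H3c4 (Hist1h3d) measured 6.93, 7.42 and 7.48 in LPS plus hBD3, 6.80, 7.26 and 7.26 in LPS, 6.76, 7.32 and 7.41 in hBD3, and 6.75, 7.38 and 7.53 in untreated BMDM. In every group of both genes replicate 1 was the lowest array. H3c13 measured 9.46, 9.55 and 9.57 in LPS plus hBD3, 9.05, 9.81 and 9.45 in LPS, 9.36, 9.54 and 9.44 in hBD3, and 9.52, 9.52 and 9.53 in untreated BMDM. H3c1 measured 5.91, 6.48 and 6.26 in LPS plus hBD3, 6.15, 6.26 and 6.17 in LPS, 5.97, 6.32 and 6.17 in hBD3, and 5.82, 6.36 and 6.34 in untreated BMDM. H3c7 has 3 probes, of which the only one detected, on 4 arrays, measured 5.81, 6.01 and 5.92 in LPS plus hBD3, 5.58, 5.79 and 5.81 in LPS, 5.82, 6.19 and 6.01 in hBD3, and 5.76, 5.78 and 6.10 in untreated BMDM. In each of these the LPS plus hBD3 and LPS arrays overlapped. H3c14 has 2 probes that disagree in level and pattern. The probe detected on all arrays measured 9.16, 9.53 and 9.33 in LPS plus hBD3, 9.05, 9.39 and 9.17 in LPS, 8.998, 9.03 and 9.23 in hBD3, and 9.04, 9.19 and 9.07 in untreated BMDM. The other, detected on 7 arrays, measured 5.76, 5.79 and 6.38 in LPS plus hBD3, 5.35, 6.04 and 6.31 in LPS, 5.64, 6.01 and 6.31 in hBD3, and 5.80, 6.02 and 6.32 in untreated BMDM, with its lowest value in LPS replicate 1.

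The H4 genes encode the same protein, and whether the probes tell their mRNAs apart was not examined. The median log FC of the detected H4 probes between LPS plus hBD3 and LPS was the lowest of the classes. H4c11 (Hist1h4j) measured 7.21, 7.58 and 7.83 in LPS plus hBD3, 7.36, 7.85 and 7.73 in LPS, 7.13, 7.74 and 7.90 in hBD3, and 7.03, 7.84 and 7.86 in untreated BMDM, with replicate 1 lowest in each group. H4c6 measured 7.37, 7.59 and 8.01 in LPS plus hBD3, 6.79, 7.51 and 7.74 in LPS, 7.29, 7.33 and 7.49 in hBD3, and 7.03, 7.67 and 7.87 in untreated BMDM, and H4c9 measured 7.31, 7.42 and 7.93 in LPS plus hBD3, 6.82, 7.59 and 7.71 in LPS, 7.26, 7.42 and 7.59 in hBD3, and 6.999, 7.57 and 7.71 in untreated BMDM. Both were lowest in LPS replicate 1 and had log FC of 0.31 ± 0.27 and 0.18 ± 0.25 between LPS plus hBD3 and LPS. H4c12 measured 5.87, 6.42 and 6.26 in LPS plus hBD3, 6.004, 6.57 and 6.26 in LPS, 5.88, 6.42 and 6.05 in hBD3, and 5.93, 6.42 and 6.33 in untreated BMDM. H4c18 measured 5.70, 6.31 and 6.11 in LPS plus hBD3, 5.81, 6.32 and 6.25 in LPS, 5.85, 6.21 and 5.91 in hBD3, and 5.69, 6.62 and 6.09 in untreated BMDM. H4c11, H4c12 and H4c18 had the lowest log FC of the family in this comparison, -0.11, -0.10 and -0.09, each within its SE of 0. The H4c12 and H4c18 probes were detected on 9 and 8 arrays. H4c4 measured 6.29, 6.40 and 6.40 in LPS plus hBD3, 6.32, 6.44 and 6.13 in LPS, 6.12, 6.10 and 6.19 in hBD3, and 6.06, 6.42 and 6.35 in untreated BMDM, and its LPS plus hBD3 arrays lay above all hBD3 arrays. H4c8 ranged from 6.49 to 7.22 over the 12 arrays.

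Of the linker histones, H1f2 (Hist1h1c) measured 11.29, 11.51 and 11.60 in LPS plus hBD3, 11.11, 11.12 and 11.32 in LPS, 11.26, 11.62 and 11.35 in hBD3, and 11.30, 11.39 and 11.36 in untreated BMDM. Its log FC between LPS plus hBD3 and LPS was 0.28 ± 0.11, and the groups overlapped. H1f10, which is not coupled to replication, had 2 detected probes. The first measured 7.38, 6.76 and 6.52 in LPS plus hBD3, 6.83, 6.74 and 6.39 in LPS, 7.24, 6.73 and 6.16 in hBD3, and 7.16, 6.43 and 6.63 in untreated BMDM, and the second 6.37, 5.98 and 5.88 in LPS plus hBD3, 5.82, 6.19 and 5.79 in LPS, 6.36, 6.04 and 6.01 in hBD3, and 6.32, 6.16 and 6.18 in untreated BMDM. In the first probe replicate 1 was the highest array of every group, the reverse of the core histones. The 7 other H1 probes (H1f1, H1f3, H1f4, H1f5, H1f6, H1f7 and H1f8) were below the detection rule. Over all classes, the 23 histone probes below it had mean log2 signals of 5.30 to 5.81 and log FC between LPS plus hBD3 and LPS of -0.08 to 0.14, and 1 of them had an unadjusted p under 0.05.

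LPS against untreated BMDM shares the LPS arrays with the comparison above, so the same low arrays enter both. In limma 0 of 60 histone probes passed (0.105% of all probes did, all higher with LPS), and 2 had an unadjusted p under 0.05, both lower with LPS, against 3.23% of all probes in either direction. The 37 detected probes had a median log FC of -0.12, with 28 below 0, where all detected probes had a median of 0.01. The median was -0.33 for H2A, -0.17 for H1, -0.12 for H2B, -0.12 for H3 and -0.01 for H4. The lowest log FC were -0.61 ± 0.30 for H2ac15, -0.60 ± 0.27 for H2ac24 and -0.59 ± 0.32 for H2ac7, and the highest were 0.17 ± 0.16 for H2ac21, 0.13 ± 0.26 for H2ac18 and 0.10 ± 0.11 for the brighter H3c14 probe. All LPS arrays lay below all untreated arrays for 2 of the 60 probes, neither of them detected, against 3.23% of all probes. Over the 7 probes called above, the log FC ran from -0.61 to -0.18 on all arrays and from -0.31 to -0.06 without LPS replicate 1.

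LPS plus hBD3 against untreated BMDM gave 0 called histone probes in limma, as it gave 0 of all probes (0%), and 1 of the 60 had an unadjusted p under 0.05, against 2.47% of all. The 11 detected H2A probes were all above 0, with a median of 0.30, and the 37 had a median of 0.10, where median scaling gave 0.055 for H2A and -0.10 for the 37. That scaling moved the median of all detected probes by -0.21, and the medians of H2A and of the 37 lay 0.26 and 0.11 above it. The largest log FC were 0.44 ± 0.25 for H2ac10, 0.38 ± 0.32 for H2ac7 and 0.38 ± 0.21 for H2ac22, and the lowest were -0.14 ± 0.15 for the dimmer H1f10 probe, -0.10 ± 0.23 for H4c18 and -0.07 ± 0.26 for the dimmer H3c14 probe. The fit with the replicate block also called 0.

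hBD3 against untreated BMDM also gave 0 called histone probes in limma, with and without the block, and 0% of all probes without it. At an unadjusted p under 0.05 there was 1 of 60, against 2.39% of all. The 11 H2A probes were again all above 0, with a median of 0.23, while the medians of H2B, H3 and H4 were -0.03, -0.05 and -0.11. Both comparisons share the untreated arrays. The largest log FC were 0.38 ± 0.30 for H2ac12, 0.37 ± 0.17 for H2ac11 and 0.29 ± 0.30 for H2ac15, and the lowest -0.16 ± 0.27 for H4c6, -0.15 ± 0.23 for H4c18 and -0.14 ± 0.10 for H4c4.

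LPS plus hBD3 against hBD3 gave 0 called histone probes in limma, with and without the block, and 0% of all probes. An unadjusted p under 0.05 was found for 4 of 60, all higher in LPS plus hBD3, against 3.78% of all. The median log FC over the 37 was 0.10 and that of H2A 0.08, and with median scaling both were negative, at -0.17 and -0.22. That scaling moved the median of all detected probes by -0.23, and the medians of the 37 and of H2A lay 0.065 and 0.013 above it. The largest, of which those of H4c6 and H3c14 turned negative with median scaling (-0.017 and -0.042), were 0.29 ± 0.27 for H4c6, 0.25 ± 0.11 for the brighter H3c14 probe and 0.23 ± 0.10 for H4c4, and at the other end -0.17 ± 0.17 for H2ac11, -0.11 ± 0.16 for H2ac21 and -0.10 ± 0.12 for H3c7. By the median log FC of the H2A probes the order of the groups was thus LPS plus hBD3, hBD3, untreated and LPS. H2ac8, H2ac18 and H2ac21 departed from it, with their lowest group mean in untreated BMDM. Under median scaling hBD3 lay above LPS plus hBD3, unless the shift of all detected probes was taken off. Without the block no histone probe differed past the threshold between any neighbours in that order.

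The effect of LPS in the presence of hBD3 minus that without it was tested as an interaction. It passed for 0 of 60 histone probes in limma and 0% of all probes. At an unadjusted p under 0.05 there was 1 of 60, against 2.56% of all. The largest values were 0.79 ± 0.38 for H2ac24, 0.71 ± 0.45 for H2ac7 and 0.64 ± 0.36 for H2ac10, and the lowest -0.28 ± 0.22 for H2ac21, -0.18 ± 0.37 for H2ac18 and -0.12 ± 0.37 for H4c11. In limma's F test for any difference among the 4 groups, 0 of 60 passed, against 0.0934% of all probes.

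**Figure D3:**
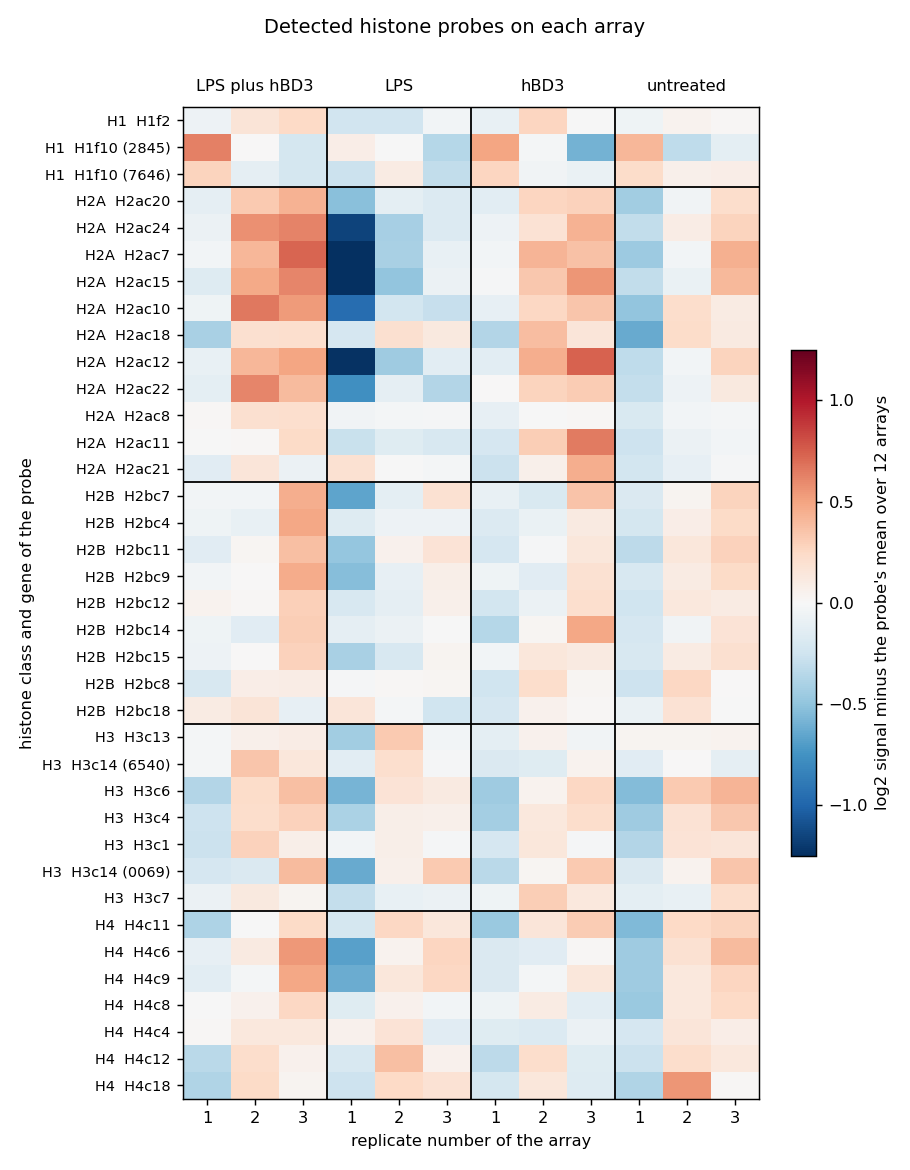
Log2 signal of the 37 detected histone probes (rows, by class) on the 12 arrays (columns, by group and replicate number), each probe minus its mean over the 12 arrays. Blue is below and red above that mean. Columns of replicate 1 are mostly blue in every group, with the brighter H1f10 probe red. The H2A rows have their lowest group mean in LPS, except H2ac8, H2ac18 and H2ac21, whose lowest is in untreated BMDM.

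More members were called for the replicate number than for any treatment. In limma's F test of that term with the groups in the model, 25 of 60 histone probes passed an adjusted p of 0.05, against 10.6% of all probes. These were 25 of the 37 detected members, against 25.6% of all detected probes. They comprised 8 of 11 H2A, 7 of 9 H2B, 4 of 7 H3, 5 of 7 H4 and 1 of 3 H1 probes. In 24 of the 25 the mean of the 4 arrays was lowest in replicate 1, and the exception was H1f10, which was highest there. Of the 2596 detected probes called over the whole array, 1043 were lowest and 1408 highest in replicate 1. H3c6 had the smallest adjusted p, 9.92e-05, with means of 6.96, 7.64 and 7.74 in replicates 1, 2 and 3. For H4c11 the means were 7.18, 7.75 and 7.83 (adjusted p = 0.00101), and for H2ac10 8.03, 8.66 and 8.61 (adjusted p = 0.000247). Whether the number marks a mouse, a day of culture or a chip was not stated, and these cannot be told apart here.

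The mean log2 signal over the 37 detected probes was 7.66, 7.91 and 8.02 in LPS plus hBD3, 7.35, 7.73 and 7.73 in LPS, 7.60, 7.86 and 7.92 in hBD3, and 7.49, 7.84 and 7.92 in untreated BMDM. The lowest array of each group was thus replicate 1. Within each replicate number the order of the groups was the same at both ends, with LPS lowest and LPS plus hBD3 highest. For the 11 H2A probes the means were 8.07, 8.55 and 8.58 in LPS plus hBD3, 7.49, 7.98 and 8.05 in LPS, 8.05, 8.45 and 8.57 in hBD3, and 7.82, 8.19 and 8.35 in untreated BMDM, with the same lowest and highest group in each number.

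**Figure D4:**
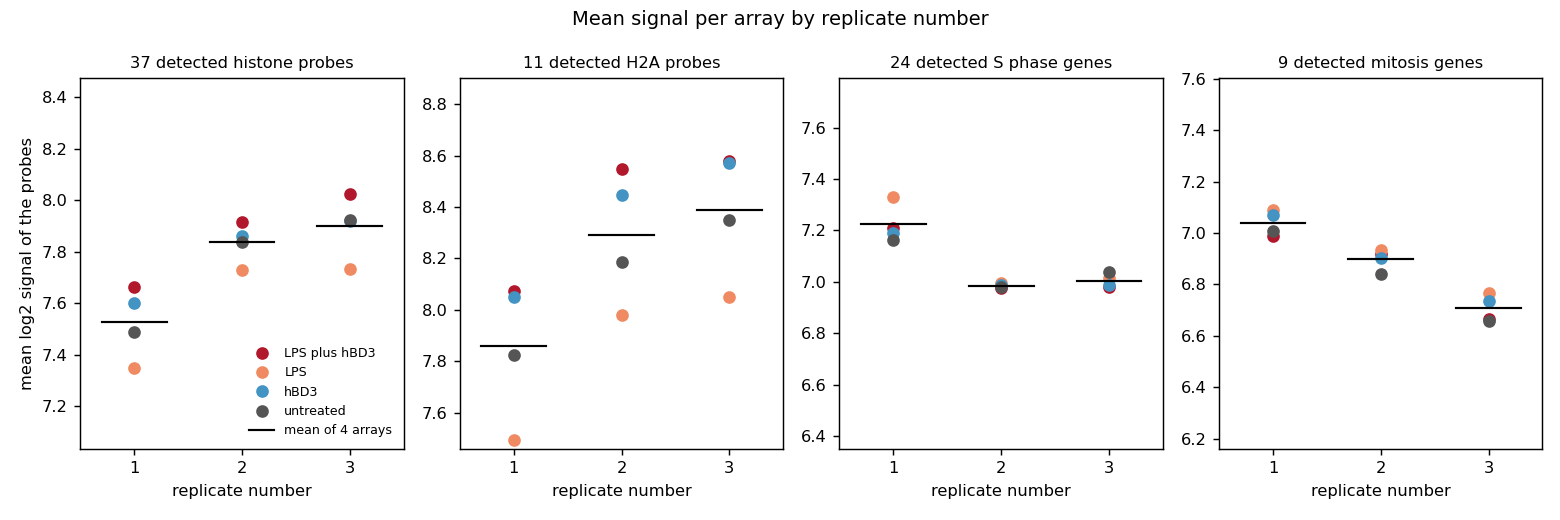
Mean log2 signal (vertical axes, equal spans) of the detected histone probes, the detected H2A probes, and the detected genes of the S phase and mitosis lists on each array by replicate number (horizontal axes). Points are arrays coloured by group and bars the mean of 4 arrays. Histone means are lowest in replicate 1, where the S phase and mitosis means are highest.

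Other genes of histone supply and cell division were read on the same arrays. S phase and DNA replication genes, whose expression accompanies histone synthesis in dividing cells, were measured for 32 of 36 listed and detected for 24. Averaged over the 4 arrays of a number, the detected ones had means of 7.22, 6.98 and 7.01 in replicates 1, 2 and 3. The replicate number test passed for 9 of 32, against 10.6% of all probes and 25.6% of all detected probes. In limma no member was called in any comparison, and 1 had an unadjusted p under 0.05 between LPS plus hBD3 and LPS. Between LPS plus hBD3 and LPS their median log FC was -0.07, with -0.01 for Fen1, -0.14 for Mcm4, -0.01 for Cdt1 and -0.21 for Cdk2. Fen1 is a flap endonuclease, Mcm4 a helicase subunit, Cdt1 a licensing factor and Cdk2 the S phase kinase. Of 16 measured mitosis genes 9 were detected, with means of 7.04, 6.90 and 6.71 by replicate number, and 6 of the 16 passed the replicate number test. Their median log FC between LPS plus hBD3 and LPS was -0.08, with -0.16 for Prc1, -0.07 for Birc5, -0.12 for Cdc20 and -0.03 for Cdk1. None was called in limma, and 0 had an unadjusted p under 0.05 there.

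Genes that transcribe and process histone mRNA were measured for 18 of 20 listed, and 10 were detected. Slbp, which encodes the stem-loop binding protein, was detected on no array. The 4 with the highest signal, Snrpb, Snrpd3, Srrt and Lsm10, had log FC of 0.14, -0.04, -0.10 and -0.18 between LPS plus hBD3 and LPS. Snrpb and Snrpd3 encode Sm ring proteins, Srrt the cap-associated factor ARS2, and Lsm10 a ring protein of the U7 particle that cuts histone pre-mRNA. Of 15 measured chaperone and import genes 13 were detected, with -0.08 for Npm1, -0.07 for Nap1l4, -0.09 for Hat1 and -0.12 for Daxx. Genes listed as replication-independent variants gave 0.14 for H2az1, 0.09 for H3f3b, -0.09 for H3f3a and 0.10 for Macroh2a1. In these 3 lists no member was called in limma in any comparison, and at most 2 members of a list had an unadjusted p under 0.05. The replicate number test passed for 3 of 18, 3 of 15 and 3 of 8 measured members, against 10.6% of all probes and 25.6% of all detected probes. Those 3 of the 8 variants were Cenpa, H1f10 and H2ax. H1f10 is also a member of the family, so this list is not separate from it. The lists were chosen with earlier results of these arrays known.

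The labelled cell type was checked against markers. All 9 measured macrophage markers were detected on every array, with Lyz2, Cd14, C1qb and Adgre1 the brightest, and none was called between groups in limma or had an unadjusted p under 0.05. Their log FC between LPS plus hBD3 and LPS were 0.01, -0.16, 0.10 and 0.14. The replicate number test passed for 7 of the 9, against 25.6% of all detected probes. Of 9 neutrophil and granulocyte markers only S100a8 was detected, on all arrays, and Elane, Ngp and Camp were among the 8 detected on none. S100a8 was also higher in replicate 1 (8.27, 8.01 and 7.57 by number). The summed linear signal of the 9 ranged from 551 to 667 in LPS plus hBD3, 564 to 746 in LPS, 583 to 668 in hBD3, and 520 to 632 in untreated BMDM. None of 8 lymphocyte markers, with Cd79b, Ms4a1, Cd79a and Cd3e the brightest, was detected on any array. Their summed signal ranged from 352 to 369 in LPS plus hBD3, 358 to 373 in LPS, 355 to 365 in hBD3, and 365 to 369 in untreated BMDM. Their part in the histone values was not tested.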

How the data were processed

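Gene expression in BMDM was measured on 12 Illumina arrays of 4 groups, and each column was assigned to its sample by title. In the deposited signal file, which the authors exported from BeadStudio, there is 1 linear intensity per probe and array, not normalized between arrays, for 25697 probes (28.0 to 22718). Per the file headers it also holds detection p-values for each probe and array. A second deposited table, of intensities quantile normalized by the authors, served as an alternative. For BeadStudio, the version is not given in the sources used here, and limma is named by the submitters' processing notes.

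Signals were quantile normalized, log2 transformed and fitted with limma 3.58.1 in R 4.3.3 (moderated variances, no trend) to a mean for each group on all 12 arrays. P-values were adjusted over all 25697 probes of a comparison by the method of Benjamini and Hochberg, with 0.05 as the threshold. All 6 comparisons and the replicate number term used the whole array. Errors are limma's SE from this fit, without the replicate block, unless the block is named. The scripts were tested on simulated data. Arrays limit the precision by their number, and the smallest median difference between any 2 arrays was 0.084 on the log2 scale, so none was a duplicate.

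Members and lists were chosen with earlier results of these data known. Named with a value per array were the detected members with the highest mean signal (up to 15), the 3 largest log FC in each direction and every member past a test. Promoters were taken from RefSeq (GRCm38.p6).

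Pairing was checked by correlating deviations from group means of arrays with equal numbers, which were 0.38 to 0.66 for LPS plus hBD3 against LPS, 0.18 to 0.51 against untreated and 0.28 to 0.64 against hBD3, and 0.38 to 0.62 for hBD3 against untreated. Every pair exceeded 0.1 in these, and the replicate number was used as a block beside the plain fit. For LPS against untreated they were 0.07 to 0.37, and 1 of 3 pairs did not exceed it. All 12 arrays correlated best with an array of their own number. Alternatives were neqc (offset 16), median scaling, the value table, detected probes only, the block, array weights, a trended and robust variance, the compared groups alone, 1 probe per gene, and each array left out.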

Additional observations from a re-analysis of the deposited data

How the results depend on the processing

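The counts of called histone probes were 0 in all comparisons under every alternative that was set with the design, except the replicate block. In limma the block called 7 in LPS plus hBD3 against LPS and 1 (H2ac24, adjusted p = 0.0385) in LPS against untreated BMDM, and changed no other such count. In the latter comparison it called 71 of all 25697 probes higher and 1 lower. There the deviations of arrays with equal numbers correlated at 0.07 to 0.37, not all above the 0.1 used for pairing. The block also gave 5 in the test for any group (H2ac7, H2ac10, H2ac12, H2ac15 and H2ac24), where 61 of all 25697 probes passed. For the interaction the block called 0 histone probes. The count of 7 was examined under further alternatives chosen after seeing the data. It was 2 with neqc, 1 with median scaling, 7 in each of the other 4 settings, and between 2 and 7 when single arrays were left out. The count of 25 for the replicate number stayed between 17 and 28 without single arrays.

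The median log FC of the detected histone probes moved by more than its spread over the 3 replicate numbers in some settings. With median scaling it was -0.021 for LPS plus hBD3 against LPS, -0.10 for LPS plus hBD3 against untreated, -0.17 for LPS plus hBD3 against hBD3 and -0.078 for the interaction, where all detected probes shifted by -0.23, -0.21 and -0.23 in the first 3. With array weights it was -0.063 for LPS against untreated and 0.17 for the interaction. Without single arrays it ranged from 0.090 (without LPS replicate 1) to 0.25 for LPS plus hBD3 against LPS, from -0.23 to -0.010 for LPS against untreated, from -0.028 to 0.18 for LPS plus hBD3 against untreated, from -0.11 to 0.088 for hBD3 against untreated, from -0.017 to 0.21 for LPS plus hBD3 against hBD3, and from 0.11 to 0.32 for the interaction.

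Some of the named log FC changed sign. With median scaling LPS plus hBD3 against hBD3 gave -0.042 for H3c14 and -0.017 for H4c6, against 0.25 and 0.29 after quantile normalization. Without single arrays the ranges that crossed 0 were, for LPS plus hBD3 against LPS, -0.25 to 0.056 for H4c11, -0.23 to 0.059 for H4c12 and -0.24 to 0.081 for H4c18. They were -0.32 to 0.15 for H4c18 and -0.27 to 0.070 for H3c14 in LPS plus hBD3 against untreated, -0.39 to 0.033 for H2ac11 and -0.28 to 0.082 for H2ac21 against hBD3, -0.40 to 0.018 for H4c6 and -0.37 to 0.10 for H4c18 in hBD3 against untreated, -0.13 to 0.30 for H2ac18 in LPS against untreated, and -0.40 to 0.083 for H2ac18 and -0.35 to 0.15 for H4c11 in the interaction. The causes were not tested.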
